A study of Mus musculus with 50 samples.

Results

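The genes described here code for 8 receptors through which immune cells sense chemoattractants, and they were grouped as receptors that inflammatory stimuli are known to induce. They are Ccr1, Ccr6, Ccr7, Ccrl2, Cxcr4, Cmklr1, Fpr1 and Fpr2, taken by their gene symbols, and all 8 were found among the 53700 genes of the count files. All but Ccrl2 are known to be receptors that signal through G proteins and steer cells along gradients of chemokines, chemerin or formylated peptides. Ccrl2 is an atypical member that binds chemerin without signalling and can present it to Cmklr1 on neighbouring cells. In the brain such receptors are known from microglia and from leukocytes that enter inflamed tissue, and lipopolysaccharide (LPS), a bacterial cell wall component, is a classic inducer of Ccr7 and Ccrl2 in macrophages and dendritic cells.

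The study asked how stress in early life acts on the RNA of hippocampal microglia, at once and in adulthood, and on their response to LPS. Stress (ELS) was a reduced supply of bedding and nesting material from P2 to P9, where P is the postnatal day, and control litters (CTR) were left undisturbed. All 50 mice were C57BL/6J males, and microglia were sorted from the hippocampi as CD45int CD11b+ cells, after removal of myelin with Percoll in adults but not in pups. RNA of each mouse gave 1 library.

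At P9 there were 12 CTR mice (P9-CTR) and 13 ELS mice (P9-ELS), without injection. At P200, mice were killed 3 h after an intraperitoneal injection of PBS or of LPS at 1 mg/kg. These groups held 7 CTR mice with PBS (CTR-PBS), 7 CTR mice with LPS (CTR-LPS), 6 ELS mice with PBS (ELS-PBS) and 5 ELS mice with LPS (ELS-LPS). Total counts per mouse ran from 13605733 to 31020979 in P9-CTR, from 5152838 to 36031616 in P9-ELS and from 13996535 to 28616316 in CTR-PBS. They ran from 13900212 to 42231258 in CTR-LPS, from 18257922 to 34990227 in ELS-PBS and from 15338010 to 20923733 in ELS-LPS. Fewer than 16000 genes were detected in 3 mice, labelled P9_19.2_ELS, P9_19.3_ELS and P200_1.1_CTR_PBS. A label gives the age, numbers around a point, the condition and the treatment. The number before the point was taken as the nest, which the study does not define, and the number after it as the mouse.

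Levels are given in CPM, a gene's count relative to its library's size after TMM scaling in edgeR. The test covered the 16696 genes that reached 1 CPM of the plain library total, before TMM, in over 2 mice, among them 5 of the 8 receptors. Cxcr4, Fpr1 and Fpr2 stayed below this filter and are given by their counts. A gene was called when its adjusted p was below 0.05 and its fold change exceeded 1 on the log2 scale, in either direction. In bulk RNA, fewer cells that carry a transcript and less of it per cell cannot be told apart.

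Of the 8 genes, 5 could be tested, and 3 of these met the name inducible receptors by a call after LPS. A missing call does not show that a receptor was not induced. Ccrl2, Ccr7 and Ccr1 were higher after LPS in both conditions. Ccr6 and Cmklr1 were not called, although Cmklr1 was lower after LPS in means per nest in all 10 nests that held both treatments. Cxcr4 was close to 0 in every group. Fpr1 and Fpr2 had low counts, at P200 in LPS mice except for Fpr1 in 1 PBS mouse.

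**Figure D1:**
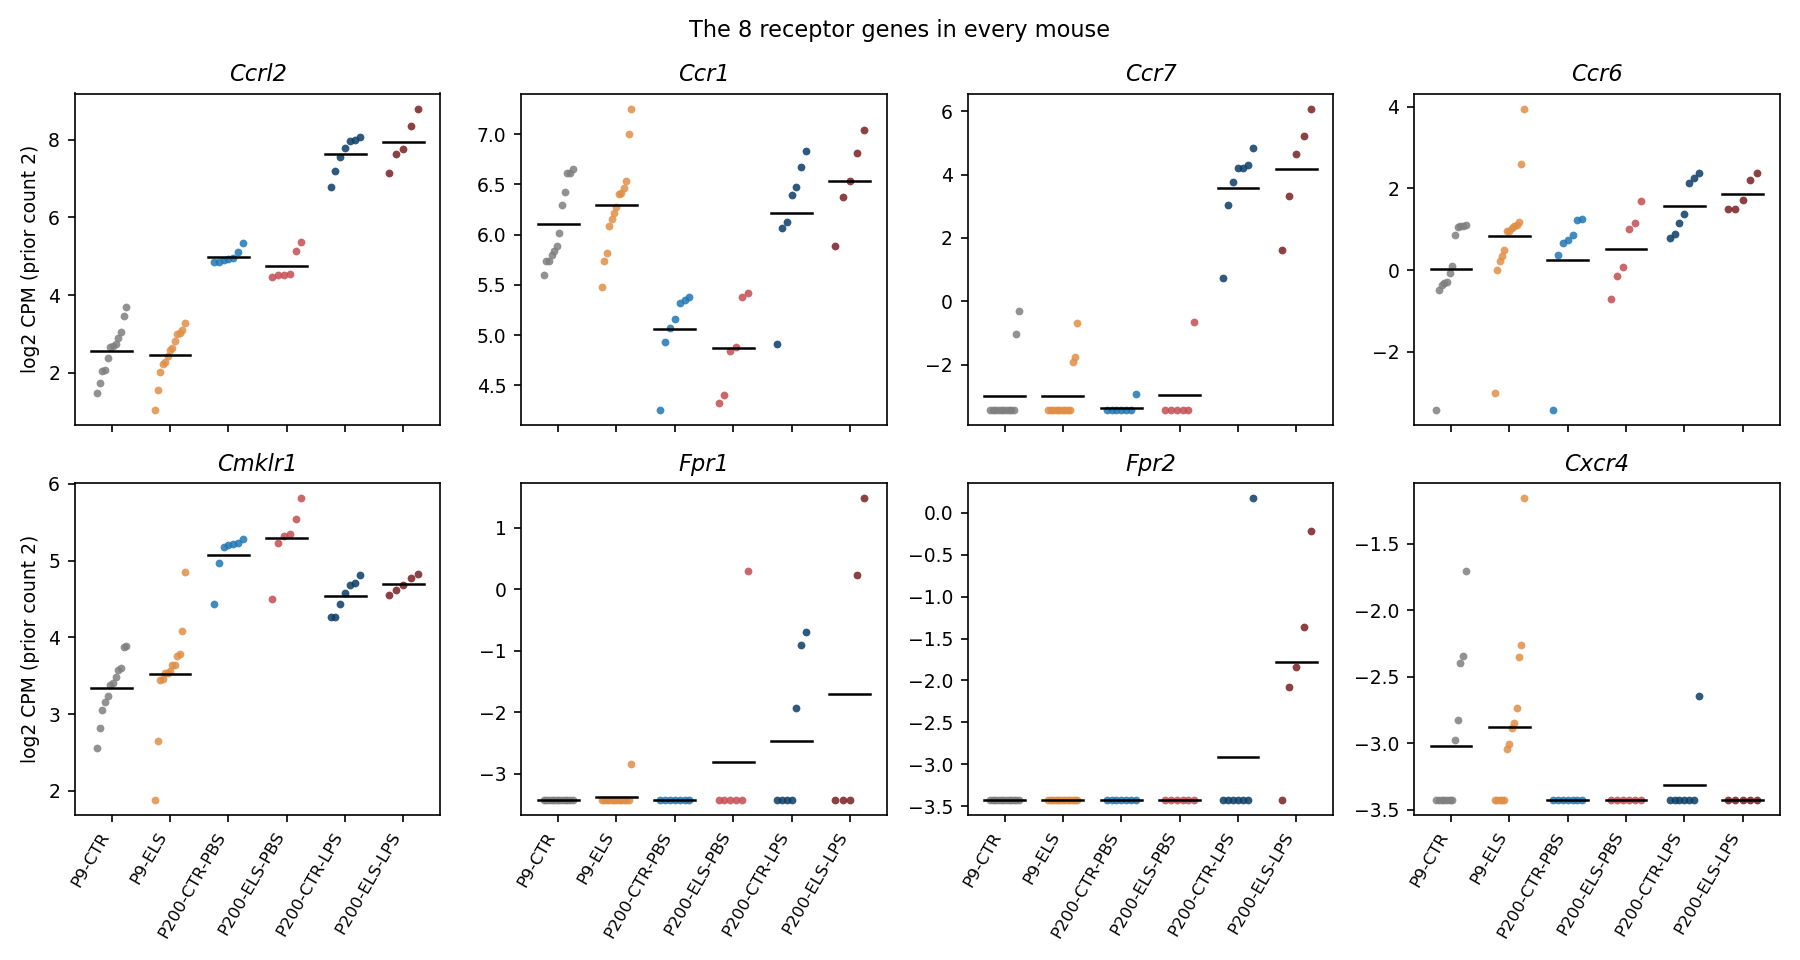
Log2 CPM (prior count 2) of each receptor gene in every mouse by group, with a black line at the group mean and a separate range for each vertical axis. Ccrl2 is higher at P200 than at P9 and higher again after LPS, while Ccr7 leaves the lowest level, which holds the mice with 0 counts, in all 12 LPS mice.

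Ccrl2, the atypical chemerin-binding receptor, lies on the minus strand of chromosome 9 of GRCm39 from 110883554 to 110886591 (ENSMUSG00000043953). In CTR-PBS its lowest, median and highest levels were 28.7, 30.4 and 40.4 CPM, and in CTR-LPS they were 111, 220 and 271 CPM. In ELS-PBS they were 22.2, 22.9 and 41.2 CPM. The 5 ELS-LPS mice stood at 140, 198, 219, 329 and 446 CPM. The treated and untreated mice did not overlap in either condition, and mouse P200_20.1_ELS_LPS was the highest of all. The log2 fold change of Ccrl2 after LPS was 2.69 (standard error 0.29) in CTR, with an edgeR adjusted p of 1.71e-10 and 7 of 7 treated mice above every PBS mouse. In ELS it was 3.26 (standard error 0.32), with an edgeR adjusted p of 2.63e-11 and 5 of 5 treated mice above every PBS mouse. Within nests, the ratio of the mean of LPS mice to that of PBS mice was 3.63 to 8.26 in 5 CTR nests. It was at least 6.18 in 5 ELS nests.

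Ccr7 is known as the receptor for CCL19 and CCL21 that leads mature dendritic cells to lymph nodes, and it lies on chromosome 11 from 99035022 to 99045911 (minus strand, ENSMUSG00000037944). It had 1 count in all CTR-PBS mice together, in mouse P200_5.2_CTR_PBS. In ELS-PBS it had 10 counts, all in mouse P200_20.2_ELS_PBS at 0.543 CPM. After LPS every mouse held the transcript, with 22 counts in the lowest, mouse P200_5.3_CTR_LPS. In CTR-LPS the lowest and highest levels were 1.57 and 28.5 CPM, and the ELS-LPS mice stood at 2.97, 10.0, 25.0, 37.4 and 67.5 CPM. The receptor went from at most 10 counts a mouse to presence in all 12 treated mice, and its level differed widely among them.

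For Ccr7 the ratio of summed counts, scaled by library totals, was 2184 in CTR, with an exact 95% interval of 392 to 86318 that covers counting error only. In ELS it was 350 (190 to 731), and without mouse P200_20.2_ELS_PBS the level was at least 1019-fold higher, against a floor of 3 counts over the group. The fitted log2 fold change was 10.28 (standard error 1.35) in CTR, with an edgeR adjusted p of 4.79e-08 and 7 of 7 treated mice above every PBS mouse. In ELS it was 8.44 (standard error 1.23), with an edgeR adjusted p of 6.92e-07 and 5 of 5 treated mice above. The fitted values depend on single mice, since the ELS value was 12.26 without mouse P200_20.2_ELS_PBS and 7.82 without mouse P200_20.1_ELS_LPS. The CTR value was 11.37 without mouse P200_5.2_CTR_PBS. The call held in each of these fits. Of the exon bases of Ccr7, 6.70% overlap Gm57398, a long noncoding RNA on the opposite strand that is absent from the count files.

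Ccr1, a receptor for CCL3, CCL5 and CCL7, lies on chromosome 9 from 123762161 to 123768734 (minus strand, ENSMUSG00000025804). Its lowest, median and highest levels were 19.0, 35.6 and 41.5 CPM in CTR-PBS and 30.0, 84.0 and 114 CPM in CTR-LPS. In ELS-PBS they were 20.0, 29.0 and 42.7 CPM, and the ELS-LPS mice stood at 59.3, 83.0, 92.6, 112 and 131 CPM. All treated mice but 1 lay above all untreated mice of their condition. The exception was mouse P200_5.3_CTR_LPS, at 30.0 CPM, which was also the lowest of its group for Ccr7 and Ccr6. The log2 fold change of Ccr1 was 1.21 (standard error 0.24) in CTR, with an edgeR adjusted p of 0.000178 and 6 of 7 treated mice above every PBS mouse. In ELS it was 1.65 (standard error 0.27), with an edgeR adjusted p of 8.45e-06 and 5 of 5 treated mice above. With the nest as a replicate block, the CTR value was 0.98 (edgeR adjusted p = 0.00291), so that it no longer passed the threshold of 1. In means per nest, Ccr1 was higher after LPS in 5 of 5 CTR nests, at ratios of 1.02 to 2.77. In the nest at 1.02, P200_5.3_CTR_LPS lay between the PBS mice P200_5.1_CTR_PBS, at 39.7 CPM, and P200_5.2_CTR_PBS, at 19.0 CPM. Across all alternatives the CTR value lay between 0.98 and 1.35, with adjusted p from 8.06e-06 to 0.00291.

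Read together with all tested genes, 3 receptors were called in CTR, all higher, where 9.62% of all genes were called, 6.02% higher and 3.60% lower. In ELS again 3 receptors were called, all higher, where 7.86% of all genes were called, 4.69% higher and 3.17% lower. They were Ccr1, Ccr7 and Ccrl2 each time. The LPS and PBS mice of CTR did not overlap for Ccr7 and Ccrl2, against 7.49% of all tested genes. Those of ELS did not overlap for Ccr1, Ccr7 and Ccrl2, against 10.0% of all tested genes. The median log2 fold change of the 5 tested receptors was 1.21 in CTR and 1.65 in ELS, beside 0.00 and -0.04 for all tested genes. The receptors were grouped as inducible with earlier results of these data known. A receptor near 0 in the PBS mice could pass the filter only through its LPS mice, as Ccr7 did.

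**Figure D2:**
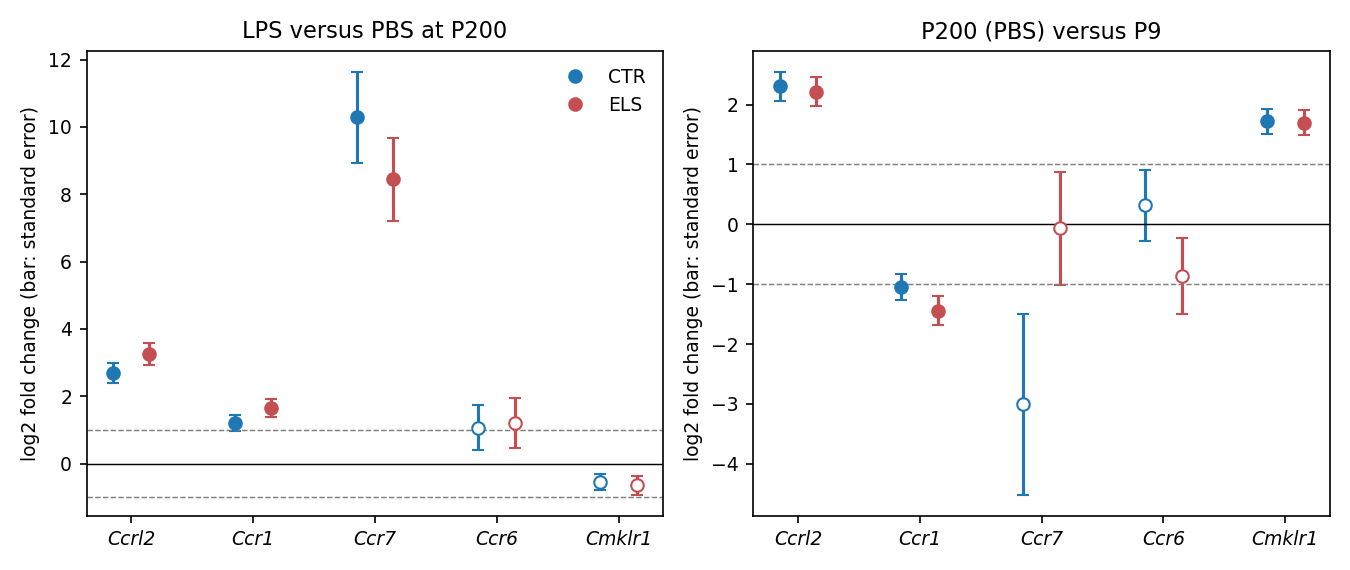
Log2 fold change with its standard error for the 5 tested receptors, after LPS on the left and from P9 to P200 on the right, in CTR (blue) and ELS (red), with called genes filled and the fold change threshold dashed. Ccrl2 is called upward in both panels, while Ccr1 and Cmklr1 point in opposite directions in the 2 panels.

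Cmklr1, the chemerin receptor that does signal, lies on chromosome 5 from 113750358 to 113788509 (minus strand, ENSMUSG00000042190). Its lowest, median and highest levels were 21.4, 36.6 and 38.8 CPM in CTR-PBS and in CTR-LPS the median and the highest were 23.7 and 28.0 CPM. In ELS-PBS they were 22.5, 40.2 and 56.1 CPM, and the ELS-LPS mice stood at 23.4, 24.5, 25.5, 27.2 and 28.2 CPM. Levels after LPS were low and close together, and the overlap came from mouse P200_15.1_CTR_PBS and mouse P200_17.1_ELS_PBS, which were as low as the treated mice. The log2 fold change of Cmklr1 was -0.55 (standard error 0.24) in CTR and -0.65 (standard error 0.27) in ELS. The edgeR adjusted p was 0.116 in CTR, with 2 of 7 treated mice below every PBS mouse. In ELS it was 0.111, with 0 of 5 treated mice below every PBS mouse, and so neither passed the test. In means per nest, the treated mice were lower than the untreated in 5 of 5 CTR nests, at ratios of 0.515 to 0.896. The same held in 5 of 5 ELS nests, at 0.486 to 0.779. Not every single mouse followed, since P200_17.3_ELS_LPS at 24.5 CPM lay above P200_17.1_ELS_PBS of its nest at 22.5 CPM. Across the alternatives the adjusted p ran from 0.0211 to 0.202 in CTR and from 0.0163 to 0.246 in ELS, and the fold change stayed under the threshold in all of them. Of the chemerin pair, Ccrl2 was thus called and Cmklr1 was not, and the difference between them was not tested.

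Ccr6, the receptor for CCL20, was a transcript of low abundance (chromosome 17, 8454869 to 8475973, plus strand, ENSMUSG00000040899). Its lowest, median and highest levels were 0, 1.57 and 2.29 CPM in CTR-PBS and 1.64, 2.52 and 5.06 CPM in CTR-LPS. In ELS-PBS they were 0.522, 1.43 and 3.15 CPM, and the ELS-LPS mice stood at 2.73, 2.74, 3.22, 4.55 and 5.07 CPM. The groups overlapped in both CTR and ELS. In means per nest, the LPS mice were higher in 3 of 5 CTR nests and in 5 of 5 ELS nests. The log2 fold change of Ccr6 after LPS was 1.07 (standard error 0.67) in CTR, with an edgeR adjusted p of 0.324 and 4 of 7 treated mice above every PBS mouse. In ELS it was 1.21 (standard error 0.75), with an edgeR adjusted p of 0.333 and 3 of 5 treated mice above. Of the exon bases of Ccr6, 46.7% overlap Gm33799, a long noncoding RNA on the opposite strand that the count files do not list, and the strand setting of the counting is not stated.

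Fpr1 and Fpr2, receptors for formylated peptides of bacteria and mitochondria, are neighbours on chromosome 17 (Fpr1 18096733 to 18104202 on the minus strand, ENSMUSG00000045551, and Fpr2 18108070 to 18114215 on the plus strand, ENSMUSG00000052270). Fpr1 had 29 counts in 3 of 7 CTR-LPS mice, 20 of them in mouse P200_1.3_CTR_LPS, the deepest library, and 0 in the CTR-PBS mice. In ELS it had 64 counts in 2 of 5 LPS mice, 49 of them in mouse P200_17.3_ELS_LPS and 15 in mouse P200_20.1_ELS_LPS, and 21 counts in 1 of 6 PBS mice, mouse P200_20.2_ELS_PBS. Fpr2 had 23 counts in 1 of 7 CTR-LPS mice, mouse P200_15.2_CTR_LPS, and 23 counts in 4 of 5 ELS-LPS mice, and 0 in all PBS mice. Over the groups this was at least 9.29-fold higher for Fpr1 and at least 7.37-fold higher for Fpr2 after LPS in CTR, both against a floor of 3 counts. Without mouse P200_1.3_CTR_LPS the bound for Fpr1 was 3.96-fold, and without mouse P200_15.2_CTR_LPS no count of Fpr2 remained. In ELS the ratio of Fpr1 was 4.90 (exact 95% interval 2.96 to 8.46), or at least 30-fold higher without mouse P200_20.2_ELS_PBS, and Fpr2 was at least 12.3-fold higher. Without mouse P200_17.3_ELS_LPS, which held 49 of the 64 counts of Fpr1 and 14 of the 23 of Fpr2, the ratio of Fpr1 was 1.5 (0.718 to 3.05) and the bound for Fpr2 6.29-fold. The LPS mice to leave out were chosen after seeing the data.

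Over single mice, an exact permutation test of mean CPM (two-sided, unadjusted) gave p = 0.0303 for Fpr2 in ELS. For Fpr1 in ELS and for both genes in CTR, so few mice held counts that the test could not reach a p under 0.05, and it is not used. Fitted without the filter on low counts, Fpr1 was called in CTR, which made 4 receptors. Of the exon bases of Fpr2, 7.01% overlap its neighbour Fpr3 on the same strand, and Fpr3 itself had 8 counts in mouse P200_8.2_CTR_LPS.

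Cxcr4, the receptor for CXCL12 that holds neutrophils and progenitors in the bone marrow, was nearly silent (chromosome 1, 128515936 to 128520044, minus strand, ENSMUSG00000045382). It had 13 counts in 5 of 12 P9-CTR mice and 16 counts in 8 of 13 P9-ELS mice. At P200 it had 1 count in mouse P200_1.2_CTR_LPS and 0 in the other 24 mice. No fold is given for it, and a level under 0.0201 CPM over the CTR-PBS group, the 3 counts of the floor, was not detectable at this depth.

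Other cell types carry several of these receptors, so their markers are given beside the values. Most blood leukocytes are known to carry more CD45 than the sorted CD45int cells, and lymphocytes mostly lack CD11b, but how many passed the sort was not measured. Neutrophils carry Fpr1, Fpr2 and Cxcr4, and 0 of 3 tested neutrophil markers were called after LPS in either condition. The summed level of the 13 neutrophil markers was 246 to 374 CPM in CTR-PBS, 252 to 502 in CTR-LPS, 260 to 473 in ELS-PBS and 306 to 452 in ELS-LPS. Most of it was Csf3r, at a mean of 301, 364, 354 and 380 CPM in these groups, in PBS mice too. Ly6g and Retnlg had 0 counts in all 50 mice. Mouse P200_15.2_CTR_LPS, the one with 23 counts of Fpr2, had 24 counts of S100a8 and 17 of S100a9. Mouse P200_17.3_ELS_LPS, which held 49 counts of Fpr1 and 14 of Fpr2, had 47 counts of S100a8, 20 of S100a9, 79 of Ngp, 21 of Camp and 15 of Ltf. S100a9 also had 18 counts in mouse P200_11.2_ELS_LPS, with 3 counts of Fpr2, and Mmp8 had 34 in mouse P200_20.1_ELS_LPS. Of the other mice with Fpr1, P200_1.3_CTR_LPS, P200_18.3_CTR_LPS and P200_20.2_ELS_PBS had 0 counts of S100a8, S100a9, Ngp, Ltf and Mmp8, with 1, 0 and 3 counts of Camp. Mouse P200_8.2_CTR_LPS, with 3 counts of Fpr1, had 2 counts of S100a8 and 1 of Ngp. Mouse P200_2.2_ELS_LPS, with 4 counts of Fpr2, had 0 of S100a8 and S100a9, 1 of Ltf and 2 of Mmp8. Conversely, pup P9_17.2_CTR had 69 counts of S100a8, 20 of S100a9 and 12 of Camp, with 0 of Fpr1 and Fpr2. The part of these markers in the counts of Fpr1 and Fpr2 was not tested.

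Mature dendritic cells carry Ccr7, and 2 of 8 tested dendritic cell markers, Ccl22 and Zbtb46, were called higher after LPS in both conditions. The summed level of the 11 markers was 1169 to 1511 CPM in CTR-PBS, 949 to 2106 in CTR-LPS, 1090 to 2150 in ELS-PBS and 1232 to 1879 in ELS-LPS. Its most abundant gene was Siglech, at means of 935, 912, 819 and 989 CPM, which is a microglia marker too. Mouse P200_20.1_ELS_LPS, the highest for Ccr7, had 23.9 CPM of Ccl22 and 44.1 CPM of Zbtb46, also the highest. Clec9a had 5, 19 and 1 counts in 3 CTR-PBS mice and 0 in CTR-LPS. In ELS it had 22 counts in 1 PBS mouse and 1 count in each of 3 LPS mice. Ccl17 went the other way, with 1 count in mouse P200_5.2_CTR_PBS and 0 in the other PBS mice. After LPS, Ccl17 had 2, 7, 2 and 3 counts in CTR mice and 2, 3, 6 and 6 counts in ELS mice. Fscn1 was not called, with log2 fold changes after LPS of 0.34 in CTR and 0.02 in ELS. Cd209a went from 0 counts in CTR-PBS to 15, 40, 5 and 27 counts in 4 of 7 CTR-LPS mice. In ELS, Cd209a had 28 and 20 counts in 2 of 6 PBS mice and 2, 4 and 18 counts in 3 of 5 LPS mice. The part of dendritic cells in the rise of Ccr7 was not tested.

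Monocytes carry Ccr1 and Fpr1, and 1 of 5 tested monocyte markers was called higher after LPS in each condition, Fn1 in CTR and Vcan in ELS. The 10 markers summed to a median of 9.33 CPM in CTR-PBS, 7.14 in CTR-LPS, and 9.56 in ELS-PBS, and to 4.50 to 20.7 CPM in ELS-LPS, where the median was the highest of the P200 groups. Ccr2 was the most abundant in the first 3 groups and Ms4a4c in ELS-LPS, at a mean of 4.87 CPM. Ly6c2 had 0 counts in CTR-PBS and CTR-LPS but not in the ELS groups. The mean of Ccr1 was 79.2 (CTR-LPS) and 95.7 CPM (ELS-LPS), and the part of monocytes in its rise was not tested.

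The 12 microglia markers summed to 90325 to 99010 CPM in CTR-PBS, 75670 to 90026 in CTR-LPS, 89816 to 95197 in ELS-PBS and 79245 to 92622 in ELS-LPS. Of them 1 of 12, Sall1, was called lower after LPS in each condition and 0 were called higher. Border-associated macrophage markers summed to no more than 12.9 CPM at P200, with Mrc1 the most abundant, and 1 of 9 was higher (Cbr2) and 1 lower (Folr2) in CTR, with 0 of 9 called in ELS. Of the T and NK cell markers 0 of 2 tested were called in either condition, Il7r was the most abundant with group means of 29.2 to 44.3 CPM at P200, and Cd8a, Ncr1 and Gzma had 0 counts at P200. Of the B cell markers 0 of 2 tested were called, and Ighm was the most abundant.

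Among cells of other lineages, 0 of 7 neuron markers and 0 of 6 oligodendrocyte markers were called after LPS in either condition. Neuron markers summed to at most 17.5 CPM at P200, with Snap25 the most abundant, and oligodendrocyte markers to at most 199 CPM, with Cnp the most abundant. Astrocyte markers were called in 0 of 6 in CTR and 2 of 6 in ELS (Gfap, Gja1, both higher). They summed to 301 to 503 CPM in CTR-PBS and 484 to 618 CPM in CTR-LPS, most of it Slc1a3. Endothelial markers were called in 2 of 5 in CTR (Cdh5, Kdr, both higher) and 0 of 5 in ELS, with Pecam1 the most abundant, at group means of 44.9 to 51.7 CPM at P200, and Ly6c1 at 0 counts.

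Levels of different receptors were compared per kb of exon. In CTR-PBS the mean levels per kb were 12.2 CPM for Ccrl2, 12.1 for Ccr1 and 8.19 for Cmklr1, and 0.612 for Ccr6, below all of them. The range of Ccr1 overlapped those of Ccrl2 and Cmklr1, while every mouse's Ccrl2 lay above the highest Cmklr1. In ELS-PBS they were 10.7 for Ccr1, 10.6 for Ccrl2, 9.72 for Cmklr1 and 0.646 for Ccr6, again with overlap among the first 3. After LPS the order opened. In CTR-LPS the mean per kb was 78.7 CPM for Ccrl2, 27.9 for Ccr1, 7.78 for Ccr7, 5.60 for Cmklr1 and 1.29 for Ccr6. In ELS-LPS it was 102 for Ccrl2, 33.7 for Ccr1, 14.4 for Ccr7, 6.19 for Cmklr1 and 1.49 for Ccr6. Ccrl2 lay above Ccr1 in every treated mouse, while the ranges of Ccr1 and Ccr7 and those of Ccr7 and Cmklr1 overlapped.

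**Figure D3:**
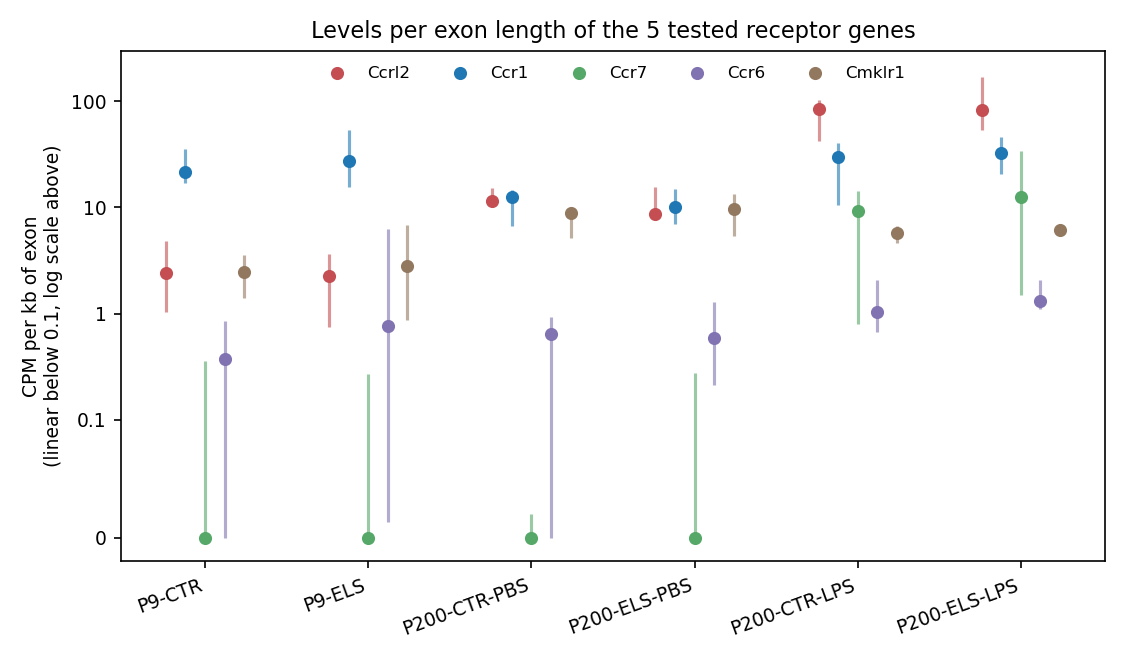
Levels per kb of exon of the 5 tested receptors by group, as CPM per kb on an axis that is linear below 0.1 and logarithmic above, with points at the medians and lines from the lowest to the highest mouse. Ccr1 stands apart on top at P9, overlaps Ccrl2 and Cmklr1 after PBS, and stands below Ccrl2 after LPS.

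Receptors of microglia outside the group give a scale for these levels. Cx3cr1, the fractalkine receptor that marks microglia, had a median of 9727 CPM in CTR-PBS and 7084 CPM in CTR-LPS, and its log2 fold change of -0.45 did not pass the test (edgeR adjusted p = 0.124). C5ar1, the receptor for complement C5a, had medians of 492 and 2542 CPM and a log2 fold change of 2.30 in CTR and 2.45 in ELS. Ccr2, the monocyte receptor for CCL2, had medians of 5.67 and 3.14 CPM, and its log2 fold change of -0.67 did not pass the test (edgeR adjusted p = 0.62). Per kb, CTR-PBS means were 2054 CPM for Cx3cr1 and 204 for C5ar1, above the 12.2 CPM of Ccrl2.

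Of 32 other chemoattractant receptors, 19 were tested and 3 were called after LPS in both conditions, all higher, with 0 lower. These were C5ar1, Cxcr5 and Ptgdr2. Cxcr5, known from B cells and follicular T cells, had a log2 fold change of 4.59 in CTR and 4.12 in ELS, from medians of 0.183 and 0.113 CPM to 5.26 and 5.53 CPM. Ptgdr2, a prostaglandin D2 receptor, had values of 2.56 and 2.55. The median log2 fold change of the 19 genes was 0.18 in CTR and -0.03 in ELS, close to that of all tested genes. That of the 5 tested receptors described above was 1.21 and 1.65. Those 5 were grouped as inducible with earlier results of these data known, so the contrast is a description only.

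Ligands of the 8 receptors were also read in the sorted cells. Of 19 listed, 18 were in the files and 9 were tested, and 5 were called higher after LPS in both conditions, with 0 lower. All 5, Ccl3, Ccl4, Ccl5, Ccl7 and Ccl9, are CC chemokines, and Ccl9 is named here after its value was seen. The median of Ccl5 went from 0.873 to 42.3 CPM in CTR, a log2 fold change of 5.18, and from 1.16 to 45.7 CPM in ELS. Ccl7 had values of 3.90 and 4.30, Ccl4 of 2.64 and 3.87, and Ccl3 of 1.48 and 2.84. Rarres2, which codes for chemerin, the ligand of Cmklr1 and Ccrl2, had -0.32 and -0.88 and was not called. The median over the 9 ligands was 1.07 in CTR and 1.33 in ELS.

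Downstream of the receptors, 26 of 27 genes of G protein signalling and desensitisation were tested. In CTR 3 were called higher (Gnai1, Pik3r5, Pik3r6) and 1 lower (Rgs2), and in ELS 1 higher (Pik3r5) and 1 lower (Rgs2), with medians of 0.13 and -0.21. Rgs2, which shortens G protein signals, fell from a median of 394 CPM in CTR-PBS to 43.7 CPM in CTR-LPS, with a log2 fold change of -3.19 in CTR and -2.49 in ELS. Pik3r5, a subunit of the PI3 kinase that chemokine receptors activate, had a log2 fold change of 2.46 and 1.64. Gnai1 had 0 counts in all CTR-PBS mice and at most 0.666 CPM in CTR-LPS, so that its call rests on a few counts.

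**Figure D4:**
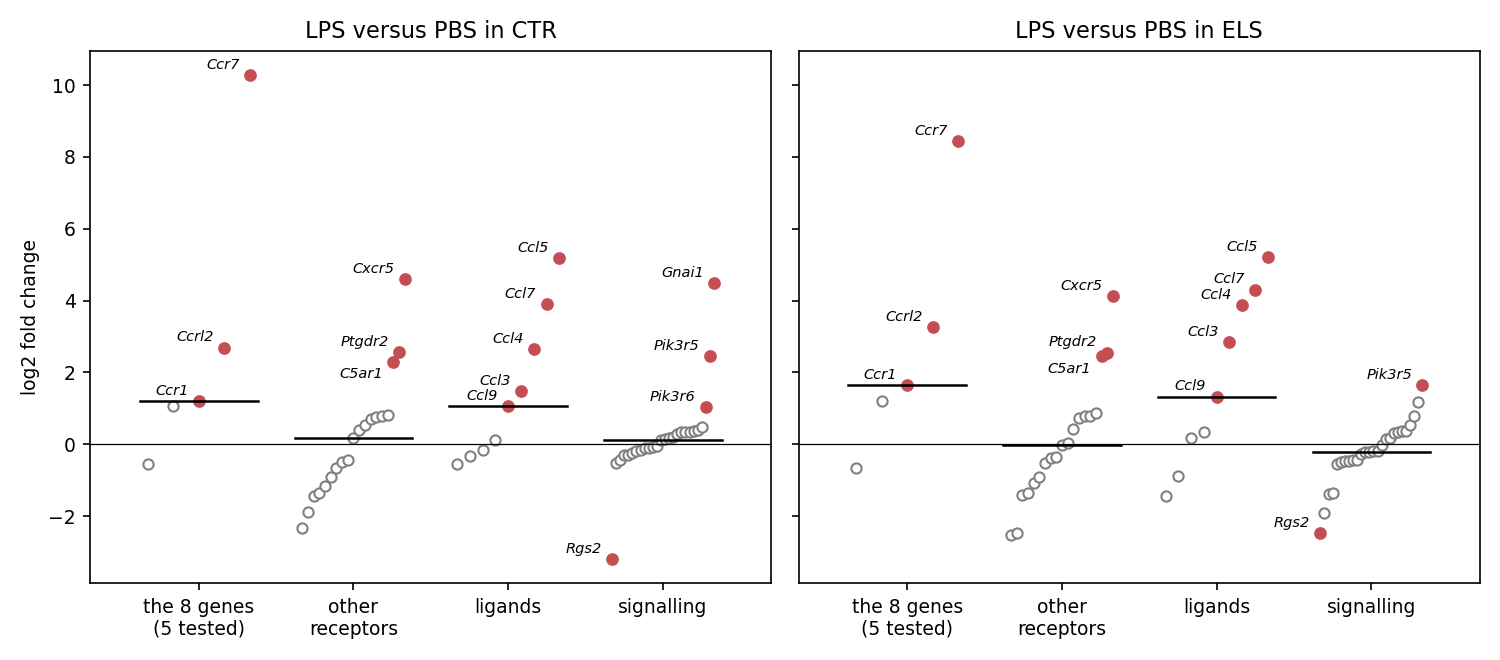
Log2 fold change after LPS of each tested gene of 4 lists, in CTR on the left and ELS on the right, with filled red points for called genes and a black line at each list's median. The medians of the receptors described here and of their ligands lie above 1, and those of the other receptors and of the signalling genes lie near 0.

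Across the 25 mice at P200, the genes most like each receptor were found by Spearman's rho of log2 CPM, after subtraction of each group's mean, over 10974 genes. Ccr7 was most like Il12b (rho = 0.91), a subunit of interleukins 12 and 23, and Cd14 (rho = 0.86), a co-receptor for LPS. Ccrl2 was most like Cxcl16 (rho = 0.82) and Ch25h (rho = 0.82), an enzyme that makes 25-hydroxycholesterol. Ccr1 was most like Aebp2 (rho = 0.80) and Phtf1 (rho = 0.76), Ccr6 most like Zdhhc7 (rho = 0.76) and Ddah2 (rho = 0.74), and Cmklr1 most like the predicted genes Gm45890 and Gm44860 (rho = 0.77 for both). Among the receptors themselves, rho was 0.61 for Ccr7 and Ccrl2, 0.54 for Ccr1 and Ccrl2, 0.49 for Ccr1 and Ccr7, and -0.33 for Ccr1 and Cmklr1. Since Ccr7 was 0 in most PBS mice, its values were also read over the 12 LPS mice alone, where rho was 0.88 with Ccrl2, 0.83 with Ccr1, 0.94 with Il12b and 0.97 with Cd14. LPS mice with more Ccr7 within their group thus tended to have more Ccrl2 as well. All values of rho are descriptions without a test, and the reading over LPS mice was added after seeing the data.

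Promoters are shown for the pair of called receptors that RefSeq lists and for Cmklr1, to set a receptor that rose beside one that did not. RefSeq's table for GRCm38.p6 holds 250 bases before and 50 after each start, and 7 of the 8 genes were found in it with 10 starts. Ccr7 was not. Capitals mark a match to the NF-κB consensus on either strand, 56 bases before the first listed start of Ccrl2 (chr9:111057469-111057768, minus strand) and 74 bases before that of Ccr1 (chr9:123968643-123968942, minus strand). The window of Cmklr1 (chr5:113643554-113643853, minus strand) holds none.
Ccrl2 promoter: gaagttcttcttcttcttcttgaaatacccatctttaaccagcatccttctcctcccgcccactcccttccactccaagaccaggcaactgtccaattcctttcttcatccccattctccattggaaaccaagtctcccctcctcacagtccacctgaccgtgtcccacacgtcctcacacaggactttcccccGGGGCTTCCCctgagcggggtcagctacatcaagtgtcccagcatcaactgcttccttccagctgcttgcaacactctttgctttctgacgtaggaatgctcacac
Ccr1 promoter: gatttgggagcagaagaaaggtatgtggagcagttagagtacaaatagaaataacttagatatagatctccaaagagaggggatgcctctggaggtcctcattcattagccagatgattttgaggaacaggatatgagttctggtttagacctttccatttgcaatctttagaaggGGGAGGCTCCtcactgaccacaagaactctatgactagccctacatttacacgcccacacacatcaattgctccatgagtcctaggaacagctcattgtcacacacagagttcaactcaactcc
Cmklr1 promoter: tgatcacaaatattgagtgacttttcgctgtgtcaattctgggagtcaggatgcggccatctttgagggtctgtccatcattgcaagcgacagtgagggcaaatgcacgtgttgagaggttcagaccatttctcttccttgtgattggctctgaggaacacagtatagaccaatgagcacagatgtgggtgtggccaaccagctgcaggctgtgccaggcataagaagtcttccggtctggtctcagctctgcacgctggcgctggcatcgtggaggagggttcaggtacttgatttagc

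The second start of Ccr6 holds overlapping matches to the NF-κB consensus, 81 and 80 bases before it, while the other 2 starts of Ccrl2, the first start of Ccr6, and Cxcr4, Fpr1 and Fpr2 hold none. Of all 32851 promoters in the table, 8.46% hold such a match. The AP-1 motif TGANTCA, found in 7.81% of promoters, and the PU.1-type motif GAGGAAGT, found in 3.2%, occur in none of the 10 windows. The TATA motif TATAAA, in 13.6% of promoters, occurs in those of Cxcr4, Fpr1 and Fpr2. A match describes letters in a window, and binding was not measured.

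Whether early stress changed the response to LPS was tested as the interaction of condition and treatment. It was called for 0 of the 5 tested receptors by adjusted p alone, against 0% of all tested genes. At an unadjusted p under 0.05 there were 0 receptors and 980 genes. The likelihood-ratio test of edgeR called 66 genes, DESeq2 15 and limma 0, with 0 receptors in each. The difference in log2 fold change, ELS minus CTR, was 0.57 (standard error 0.41) for Ccrl2, 0.44 (0.36) for Ccr1, 0.14 (1.00) for Ccr6 and -0.10 (0.36) for Cmklr1. For Ccr7 it was -1.84 (standard error 1.75), and it was 1.98 without mouse P200_20.2_ELS_PBS, so that its sign changes with the 10 counts of that mouse. Thus no difference in the response of these receptors between CTR and ELS passed the test.

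Whether ELS itself changed the receptors was asked at P9, right after the stress, and in adults. At P9 the lowest, median and highest levels of Ccr1 were 48.2, 61.8 and 101 CPM in CTR and 44.6, 77.2 and 152 CPM in ELS. Ccrl2 stood at 2.69, 6.30 and 12.8 CPM in CTR and at 1.97, 5.97 and 9.59 CPM in ELS. Cmklr1 stood at 5.80, 10.4 and 14.8 CPM in CTR and at 3.59, 11.7 and 28.7 CPM in ELS. The conditions overlapped for each of them, and the highest values of Ccr1 and Cmklr1 came from P9_19.2_ELS and P9_19.3_ELS, both with few detected genes. The lowest values came from these mice too, those of Ccr1 and Ccrl2 from P9_19.3_ELS and that of Cmklr1 from P9_19.2_ELS. Of the 5 tested receptors 0 were called by edgeR at P9, against 0% of all tested genes, with 914 genes at an unadjusted p under 0.05. The likelihood-ratio test called 1 gene and DESeq2 and limma 0, none of them a receptor.

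Ccr6 was the 1 receptor with an unadjusted p under 0.05 at P9. Its lowest, median and highest levels were 0, 0.919 and 2.07 CPM in P9-CTR and 0.0313, 1.86 and 15.4 CPM in P9-ELS. The log2 fold change of Ccr6 was 1.25 with a standard error of 0.50. The edgeR adjusted p was 0.897, and 3 of 13 ELS mice lay above every CTR mouse. These 3 were all the pups of nest 19, 1 of 4 ELS nests, so that they are littermates if the number gives the nest. The highest was mouse P9_19.2_ELS, without which the value was 0.59 in a fit chosen after seeing the data, and without all mice of few detected genes it was 0.30. The same mouse had the highest sum of T and NK cell markers of its group, 37.6 CPM against a median of 2.97, most of it Il7r.

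In adults, 0 of 5 tested receptors were called between ELS-PBS and CTR-PBS mice by edgeR, against 0.156% of all tested genes (26), with 0 receptors and 1622 genes at an unadjusted p under 0.05. The likelihood-ratio test here called 191 genes, DESeq2 155 and limma 0, with 0 receptors in each. The count of 26 was unstable, at 1 to 75 genes with 1 mouse left out and 0 with the contrasted groups alone. The log2 fold changes were -0.17 (standard error 0.25) for Ccr1, -0.20 (0.28) for Ccrl2, 0.25 (0.25) for Cmklr1 and 0.07 (0.69) for Ccr6. Only P200_5.2_CTR_PBS and P200_20.2_ELS_PBS held Ccr7 among the PBS mice, which gave 2.73 (1.70), or -1.10 without mouse P200_20.2_ELS_PBS. After LPS, 0 of 5 receptors were called between ELS-LPS and CTR-LPS mice, against 0% of all tested genes, with 0 receptors and 798 genes at an unadjusted p under 0.05. The likelihood-ratio test called 10 genes, DESeq2 2 and limma 0, again with 0 receptors. The log2 fold changes were 0.89 (standard error 0.84) for Ccr7, 0.37 (0.29) for Ccrl2, 0.27 (0.26) for Ccr1, 0.22 (0.72) for Ccr6 and 0.15 (0.26) for Cmklr1. All 5 values were positive, and none passed the test.

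How the receptors differ between pups and adults was read from P9 against adult PBS mice. Ccrl2 had a median of 6.30 CPM in P9-CTR and 30.4 CPM in CTR-PBS. Its log2 fold change with age was 2.31 (standard error 0.24). The edgeR adjusted p was 2.62e-11, and 7 of 7 adults lay above every pup. Cmklr1 had medians of 10.4 and 36.6 CPM and a log2 fold change of 1.72 (standard error 0.21, edgeR adjusted p = 1.32e-09), with 7 of 7 adults above every pup. Ccr1 went the other way, with medians of 61.8 and 35.6 CPM and a log2 fold change of -1.05 (standard error 0.22, edgeR adjusted p = 0.000114), and 7 of 7 adults lay below every pup. The sorted cells of CTR adults thus held more of both chemerin receptors and less Ccr1 than those of pups.

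The same 3 receptors were called in ELS. Ccrl2 had a log2 fold change of 2.22 (standard error 0.24, edgeR adjusted p = 1.09e-10) with 6 of 6 adults above every pup, and Ccr1 of -1.44 (standard error 0.24, edgeR adjusted p = 1.96e-06) with 6 of 6 below. Cmklr1 had 1.69 (standard error 0.21, edgeR adjusted p = 2.9e-09) with 5 of 6 above, since mouse P200_17.1_ELS_PBS lay at 22.5 CPM and the highest pup, P9_19.3_ELS, at 28.7 CPM. In CTR, 2 receptors were called higher and 1 lower, where 26.4% of all tested genes were called, 7.98% higher and 18.5% lower. In ELS, 2 were called higher and 1 lower, where 26.2% of all tested genes were called, 8.68% higher and 17.5% lower. The median over the 5 tested receptors was 0.31 in CTR and -0.07 in ELS, beside -0.09 and -0.01 for all tested genes.

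Ccr7 and Ccr6 were not called with age. Ccr7 had 26 counts in 2 of 12 P9-CTR mice and 1 in 1 of 7 CTR-PBS mice, a ratio of adults to pups of 0.0653 (exact 95% interval 0.00159 to 0.398, counting error only). The edgeR adjusted p of this lower level was 0.102. In ELS it had 25 counts in 3 of 13 pups and 10 in 1 of 6 adults, mouse P200_20.2_ELS_PBS, a ratio of 0.77 (0.33 to 1.66) with an edgeR adjusted p of 0.961. The fitted log2 fold change of Ccr7 in ELS was -0.07, and as low as -3.89 with 1 mouse left out. The lowest adjusted p across the alternatives was 0.078. Ccr6 had 0.31 (standard error 0.59) in CTR and -0.86 (standard error 0.63) in ELS. Cxcr4, with its counts at P9 alone apart from 1, was called lower in adults when the filter on low counts was dropped, in both conditions. Fpr1 was then called higher in ELS adults, by the 21 counts of mouse P200_20.2_ELS_PBS.

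By level per kb, Ccr1 was the first of the receptors in pups. Its mean was 25.0 CPM per kb in P9-CTR, apart from 2.48 for Cmklr1 and 2.47 for Ccrl2, which overlapped. In P9-ELS it was 29.1 CPM per kb, apart from 3.02 for Cmklr1 and 2.26 for Ccrl2. In adults given LPS it was back at 27.9 and 33.7 CPM per kb, but then below Ccrl2. Whether ELS altered the change with age was tested as well. The interaction of condition and age was called for 0 of 5 by edgeR, against 0.0299% of all tested genes (5), with 0 receptors and 1712 genes at an unadjusted p under 0.05. The likelihood-ratio test called 29 genes, DESeq2 20 and limma 0, with 0 receptors in each.

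Age and cell preparation cannot be told apart, since Percoll was used for adults alone, and LPS was given to adults alone. Markers of other cells moved with age beside the receptors. Border-associated macrophage markers summed to 568 to 936 CPM in P9-CTR and 2.84 to 12.9 CPM in CTR-PBS, with 9 of 9 called lower in CTR and 6 of 9 in ELS. Neuron markers were lower in 7 of 7 and 6 of 7, and of the astrocyte markers 5 of 6 were lower and 1 higher in both. Of the monocyte markers 3 of 5 were called lower (Fn1, Plac8, Vcan) and 1 higher (Ccr2) in both conditions. Microglia markers were called higher in 2 of 12 (Gpr34, Tmem119) in CTR and 1 of 12 (Tmem119) in ELS, and their sum was 42818 to 67045 CPM in P9-CTR and 90325 to 99010 CPM in CTR-PBS. Of the remaining markers, Il7r, Mag and Mobp were called higher and Cxcr2, Cd79b, Clec10a, Cldn5 and Cdh5 lower in both conditions. Ccr1 is known from macrophages of several tissues, and the part of the other cells in its higher level at P9 was not tested.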

How the data were processed

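The authors made reads with bcl2fastq 2.20, trimmed them with cutadapt 2.10, mapped those of each mouse to GRCm39 and counted those within exons per gene with HTSeq 0.11.0. Their deposited tables hold unnormalised counts. The strand setting and annotation release of the counting are not stated. Of 53700 genes, the 16696 that passed the filter were fitted in edgeR 4.0.16 (R 4.3.3) as 6 group means over 50 mice. The fit used TMM scaling and the quasi-likelihood test, and p-values were adjusted over these genes by Benjamini and Hochberg. For the interactions, a call needed an adjusted p under 0.05 alone. A prior count of 2 went into log2 CPM. The test was also tried on artificial counts with planted changes, and nothing about the receptors is concluded from that trial. Counts near 0 were compared as sums over a group, with exact 95% intervals or a floor of 3 counts; intervals and floors cover counting error only. Fpr1 and Fpr2 were also compared over mice by exact permutation tests, of which only that of Fpr2 in ELS could reach 0.05 (Python 3.11.15, numpy 2.4.6, pandas 2.3.3, scipy 1.17.1). Levels per kb used the exon bases of a GENCODE annotation of GRCm39, and promoters came from RefSeq.

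The number before the point of a mouse label was taken as its nest, which the study does not define. Alternative fits used the likelihood-ratio test of edgeR, DESeq2 1.42.0, its size factors in edgeR, no filter, a filter of 1 CPM in at least 5 mice, the contrasted groups alone, voom of limma 3.58.1 in which nests were a random effect, the nest as replicate block, leaving out mice with under 16000 detected genes, and leaving out each P200 mouse in turn. Fits without P200_20.2_ELS_PBS for the age comparisons, and without P9_19.2_ELS, were chosen after seeing the data, as were the values of Fpr1 and Fpr2 without the LPS mouse with most counts, and the rho over LPS mice.

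The genes named are the 8 receptors, up to 4 called genes per direction with the largest change in CTR from the lists of other chemoattractant receptors, ligands, and signalling and desensitisation, the reference receptors Cx3cr1, C5ar1 and Ccr2, and 2 genes most like each tested receptor. Lists of markers of microglia, neutrophils, monocytes, border-associated macrophages, dendritic cells, T and NK cells, B cells, neurons, astrocytes, oligodendrocytes and endothelial cells were read beside them. The receptors and lists were chosen with earlier results of these data known.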

Additional observations from a re-analysis of the deposited data

Results flagged for a closer look

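In groups of 5 to 7 mice, a mouse was singled out where it lay farther from the others than Dixon's 95% limit allows. Of 34 sets of values tested, 7 held such a mouse, and for normally distributed values chance alone gives about 1 in 20. In 5 of them a receptor had counts in 1 mouse of its group and 0 in the others. Such a set meets the rule by construction, even with 1 count, so the chance rate does not apply to it. These were Ccr7 in P200_5.2_CTR_PBS (0.0389 CPM) and in P200_20.2_ELS_PBS (0.543 CPM), and Fpr1 in P200_20.2_ELS_PBS as well (1.14 CPM). Fpr2 stood at 1.03 CPM in P200_15.2_CTR_LPS and Cxcr4 at 0.0666 CPM in P200_1.2_CTR_LPS.

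P200_1.1_CTR_PBS had 12854 detected genes, against 17424 to 19727 in the other CTR-PBS mice, and was the 1 mouse of its group without Ccr6. P200_1.3_CTR_LPS had a total count of 42231258, against 13900212 to 24367751 in the other CTR-LPS mice.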

How the results depend on the processing

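The receptors called in the LPS comparisons were Ccr1, Ccr7 and Ccrl2 under every alternative except the following. With the nest as replicate block, Ccr1 in CTR stood at 0.98 and was not called, which left 2 receptors, with 3 in ELS and 0 for the interaction. Without a filter on low counts, Fpr1 was added in CTR. Without that filter the change with age in ELS held 5 called receptors, with Cxcr4 and Fpr1 added, and that in CTR held 4, with Cxcr4 added. The filter leaves the added genes untested. After removal of group means, the PBS and LPS mice of a nest were correlated over the tested genes. The values were -0.04 to 0.08 over 10 P200 nests, with 0 over 0.1. Mice of a nest with the same treatment, and pups, were not compared in this way. Called fold changes kept their direction throughout, and the direction changed in these uncalled values, whose cause was not tested. With limma, the log2 value was -0.22 for Ccr6 and 0.33 for Ccr7 in the interaction with LPS, 0.16 for Ccr7 and 0.0335 for Ccrl2 in ELS versus CTR at P9, and -0.0307 for Ccr7 and 0.0688 for Cmklr1 in the interaction with age. Without mice of few detected genes it was -0.15 for Ccr6 in ELS-PBS versus CTR-PBS, 0.0861 for Ccr6 with age in ELS and 0.0719 for Cmklr1 in the interaction with age. Ccr7 with age in ELS was 0.24 by the likelihood-ratio test and 0.28 by DESeq2. With 1 mouse left out at a time, the interaction with LPS ran from -0.0398 to 0.45 for Ccr6, from -2.93 to 1.98 for Ccr7 and from -0.22 to 0.0145 for Cmklr1. ELS-PBS versus CTR-PBS ran from -0.24 to 0.25 for Ccr6 and from -1.10 to 3.81 for Ccr7. The interaction of Ccr7 with age ran from -0.89 to 2.82 in the fits without P200_20.2_ELS_PBS and without P9_19.2_ELS, which were chosen after seeing the data. Each change of sign of Ccr7 with mice left out came without P200_20.2_ELS_PBS. In CPM of plain totals, Cmklr1 in ELS-LPS stood at 22.7 and not 25.8. Depth limits Fpr1, Fpr2, Cxcr4 and Ccr7 outside LPS, where a few counts set the values.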

Other observations

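With age, other chemoattractant receptors changed beside Ccrl2, Cmklr1 and Ccr1. In CTR, 5 of 19 tested were called higher at P200 (C5ar1, C5ar2, Ccr1l1, Ccr2, Ccr3) and 2 lower (Ackr3, Cxcr2), and in ELS 3 were higher (C5ar1, C5ar2, Ccr2) and 2 lower (Cxcr2, Cxcr5). C5ar1 had a log2 fold change of 1.65 in CTR and 1.64 in ELS. Of the 9 tested ligands, 2 were higher (Ccl3, Ccl4) and 1 lower (Mif) in CTR, and 1 higher (Ccl4) and 2 lower (Ccl7, Mif) in ELS. Of the 26 tested signalling genes, Rgs1 was called higher in both conditions. In CTR, Rgs2, which LPS lowered, was called higher with a log2 fold change of 1.34, and Gnai1 and Grk6 were called lower. Genes outside the naming rule are given here after their values were seen.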
